A study of Mus musculus with 10 samples.

Results

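The insulin, AKT and FOXO genes described here are 10 transcripts of the insulin signaling route that the study links to AXL. They were chosen by name, with earlier results of these data known. The 10 are the receptor gene Insr, the substrate genes Irs1 and Irs2, the PI3K regulatory subunit gene Pik3r1, the kinase genes Akt1 and Akt2, the transcription factor genes Foxo1, Foxo3 and Foxo4, and the FOXO target gene Sesn3. The paper does not name every one of them, Sesn3 being 1 that it leaves out. They are 10 of the 41249 gene identifiers counted in each mouse. RNA was sequenced from the interscapular brown adipose tissue (iBAT) of 10 male mice, 5 Axl knockout (Axl KO) and 5 wild-type littermates (WT), with 1 library per mouse. Every mouse of both groups was kept at room temperature on a high-fat diet (HFD), for 24 weeks from an age of 6 to 8 weeks according to the sample records; the paper's text gives a slightly longer diet and a later start. The Axl allele is a constitutive knockout-first allele on a C57BL/6 background, Axl tm1a(EUCOMM)HMGU, in which a LacZ cassette interrupts the gene in every cell of the body, so that no value here belongs to AXL of brown adipocytes alone. The question behind the comparison is whether the loss of AXL, a receptor tyrosine kinase, goes with a change of insulin signaling through AKT and FOXO1 in brown fat.

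In adipocytes, insulin binds its receptor, which phosphorylates the IRS proteins. These recruit PI3K, made of a catalytic and a regulatory subunit, and the lipid it makes brings AKT to the membrane, where AKT is activated. AKT then phosphorylates the FOXO transcription factors and keeps them out of the nucleus, and when insulin is low FOXO proteins return and switch on genes of stress resistance, fasting metabolism and autophagy, along with Insr and Irs2 themselves. Signaling through this route is carried by phosphorylation and by the place of the proteins in the cell, neither of which is measured by the counts of mRNA given here.

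Library totals lay between 5431014 and 9580215 counts (median 6645186 in Axl KO mice and 7748975 in WT mice), and values are given in CPM, the count of a gene relative to the TMM-normalized library size of its mouse. Axl itself was read at 0.437 to 2.01 CPM in Axl KO mice and at 38.2 to 52.4 CPM in WT mice, a log2 fold change of -4.77 (edgeR, adjusted p = 9.95e-08), so that the counts match the labels. The 13 genes listed as brown adipocyte markers summed to 16555 to 20990 CPM in Axl KO and to 15269 to 17815 CPM in WT mice. The list holds Ucp1 and other brown fat genes, but also Pparg, Plin1, Fabp4 and Adipoq, which are general adipocyte genes. Its sum is therefore no measure of brown identity alone. At an unadjusted p under 0.05 in edgeR, 5 of these 13 genes (38.5%) were higher in Axl KO mice, beside 4.47% of all genes. At an adjusted p under 0.05, edgeR called 0 of the 13 and DESeq2 called 1. Markers of skeletal muscle differed far more between mice: the 12 genes summed to 26.1, 7.09, 1850, 666 and 3589 CPM in Axl KO replicates 1 to 5 and to 3490, 921, 4280, 3328 and 871 CPM in WT replicates 1 to 5, with 12 of 12 fitted lower in Axl KO mice (median log2 fold change -1.05) and 0 called. The 10 fibroblast markers summed to 549 to 918 CPM in Axl KO and to 766 to 1043 CPM in WT mice, with 0 of 10 fitted higher in Axl KO mice (median -0.32). Of these 10, 2 (20%) were lower at an unadjusted p under 0.05 in edgeR, beside 3.84% of all genes. The 9 B and T cell markers never exceeded 3.01 CPM in sum. As whole depots were sequenced, fewer cells of a type and less RNA per cell cannot be told apart in any value below.

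All 10 transcripts passed the filter of a mean above 1 CPM. None of them was called at an adjusted p under 0.05 by edgeR or by DESeq2, where the share of all 13733 tested genes called was 0.00728% (1 gene, Axl itself, in edgeR). At an unadjusted p under 0.05, 1 of the 10 was lower in Axl KO mice (Sesn3), beside 3.84% of all genes, and 0 were higher, beside 4.47% of all genes. The only transcript of the 10 with no overlap between the mice of both genotypes was again Sesn3, where 1.37% of all genes had no overlap. Of the 10, 4 were fitted higher in Axl KO mice, and their median log2 fold change was -0.013 beside -0.00082 over all genes.

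The sequences upstream of the gene starts are shown for 3 of the 10, since FOXO proteins bind DNA and Irs2 and Sesn3 are known FOXO targets. The 250 bases before a start were taken from RefSeq (GRCm38.p6) and searched on both strands for GTAAACA, a form of the site that FOXO proteins bind. Other forms of the site were not searched. Of the 10 genes 8 had an entry, with 13 start sites, and Insr and Foxo4 had none. One of these 13 windows, that of Akt1, held the motif, while 3.17% of all 32851 promoter windows did. In the Akt1 window it is read as TGTTTAC, its reverse complement, with the last base lying 155 bases before the start. The sequences run 5′ to 3′ on the strand of the gene, and capitals mark the motif.
Akt1, chr12:112674885-112675134, minus strand: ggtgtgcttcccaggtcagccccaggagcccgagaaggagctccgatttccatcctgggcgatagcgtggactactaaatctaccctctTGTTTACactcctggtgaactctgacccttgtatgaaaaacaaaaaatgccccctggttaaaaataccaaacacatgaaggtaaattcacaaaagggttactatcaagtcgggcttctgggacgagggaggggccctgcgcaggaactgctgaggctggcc
Irs2, chr8:11008930-11009179, minus strand: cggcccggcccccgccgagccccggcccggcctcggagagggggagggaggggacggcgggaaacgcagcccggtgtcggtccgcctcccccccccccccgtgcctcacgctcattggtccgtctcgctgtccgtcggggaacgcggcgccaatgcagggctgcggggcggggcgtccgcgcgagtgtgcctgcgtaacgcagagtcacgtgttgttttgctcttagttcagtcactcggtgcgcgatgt
Sesn3, chr9:14276051-14276300, plus strand: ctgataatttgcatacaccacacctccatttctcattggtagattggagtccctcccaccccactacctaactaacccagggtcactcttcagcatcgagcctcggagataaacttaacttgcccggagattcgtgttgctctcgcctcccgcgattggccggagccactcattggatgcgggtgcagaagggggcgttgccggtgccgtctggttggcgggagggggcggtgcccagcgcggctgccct
A match describes letters and not a bound site, and the absence of one covers only these letters in this window. The RefSeq start of Sesn3 lies inside the longer gene that GENCODE annotates from chr9:14275067. That of Irs2 lies upstream of the start that GENCODE annotates at chr8:11008458. For these genes the bases just before the GENCODE start were not searched. None of the 3 windows overlaps an annotated exon.

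Insr, on chromosome 8 (3122061 to 3279617, GRCm38), encodes the receptor that binds insulin at the cell surface. It was read at 217, 211, 183, 227 and 223 CPM in Axl KO replicates 1 to 5 and at 182, 191, 212, 201 and 188 CPM in WT replicates 1 to 5. Of the Axl KO mice, 3 lay above every WT mouse and replicate 2 just below the highest of them, while replicate 3 was close to the lowest WT mouse. The difference on the log2 scale was 0.12 (SE 0.070, 95% interval -0.028 to 0.28; edgeR adjusted p = 0.643). Without Axl KO replicate 3 it was 0.17, with an adjusted p = 0.231 from edgeR. That was the lowest of the fits with 1 mouse left out, and the highest was 0.827, without Axl KO replicate 1. Isoforms of the receptor with and without its alternative exon share one count and cannot be separated.

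Igf1r, the gene of the related receptor for IGF1, had a log2 fold change of -0.21 (unadjusted p = 0.0599, adjusted p = 0.604, edgeR), from 14.6 to 18.9 CPM in Axl KO and from 16.8 to 23.0 CPM in WT mice. The ratio of Insr to Igf1r counts within a mouse, which does not depend on library size, ranged from 10.2 to 15.2 in Axl KO and from 8.13 to 11.3 in WT mice. The log2 ratio was higher in Axl KO mice by 0.33 (SE 0.13; two-sided exact permutation p = 0.0317, and 0.159 after adjustment over the 5 ratios tested, the smallest p of 5 against 5 mice being 0.00794). The ranges overlapped, and this difference did not pass the adjustment.

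Irs1 and Irs2 encode the adaptor proteins that carry the signal from the receptor to PI3K. Irs1 (chromosome 1, 82233101 to 82291416) was read at 80.7, 80.0, 68.0, 76.5 and 58.9 CPM in Axl KO replicates 1 to 5. In WT replicates 1 to 5 it was read at 92.0, 90.0, 85.3, 75.0 and 67.9 CPM. The lowest value belonged to Axl KO replicate 5 and 3 WT mice lay above every Axl KO mouse, with the remaining mice intermixed. Between genotypes it differed by -0.17 on the log2 scale (SE 0.10, interval -0.40 to 0.052; adjusted p = 0.660, edgeR's quasi-likelihood test), and -0.11 without Axl KO replicate 5. An antisense gene, Gm9747, shares 30.9% of the exonic bases of Irs1 and had 0 counts in every mouse, while the strand setting of the counting was not stated.

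Irs2 (chromosome 8, 10984681 to 11008458), whose protein is the more closely tied to fasting and feeding, varied most of the 10. Axl KO replicates 1 to 5 held 18.6, 54.9, 21.3, 33.4 and 25.0 CPM. WT replicates 1 to 5 held 19.3, 21.5, 48.5, 33.2 and 15.7 CPM. In each genotype 1 mouse stood well above the others, replicate 2 of Axl KO and replicate 3 of WT, and the highest mouse exceeded the lowest by 2.96-fold in Axl KO and 3.08-fold in WT mice. The variation between mice of a genotype, as the biological coefficient of variation estimated by edgeR for this gene, was 36.3%, at percentile 97.1 of all tested genes. The difference between genotypes was accordingly poorly determined, with a log2 fold change of 0.15 (SE 0.34, interval -0.58 to 0.88; adjusted p = 0.923, edgeR). It was -0.17 without Axl KO replicate 2 and 0.46 without WT replicate 3, so that its direction rested on single mice. The log2 ratio of Irs1 to Irs2 differed by -0.33 (SE 0.39, two-sided exact permutation p = 0.413, adjusted 0.635).

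Pik3r1 (chromosome 13, 101680563 to 101768217) encodes the p85 alpha regulatory subunit of PI3K together with shorter forms that share its count. In Axl KO replicates 1 to 5 it was read at 461, 292, 284, 350 and 474 CPM, in WT replicates 1 to 5 at 362, 331, 367, 224 and 345 CPM. Replicates 1 and 5 of Axl KO were above every WT mouse, replicate 4 of WT was below every other mouse, and the groups overlapped. The log2 fold change of 0.19 (SE 0.17, interval -0.17 to 0.55; adjusted p = 0.766, edgeR) was 0.083 without WT replicate 4, 0.085 without Axl KO replicate 5 and 0.10 without Axl KO replicate 1. The transcript of its main catalytic partner, Pik3ca, hardly varied, with 93.7 to 104 CPM in Axl KO and 89.8 to 99.5 CPM in WT mice (log2 fold change 0.046, adjusted p = 0.827, edgeR). The log2 ratio of Pik3r1 to Pik3ca differed by 0.13 (SE 0.21, two-sided exact permutation p = 0.508).

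Akt1 and Akt2 encode the serine/threonine kinases of the route, Akt2 being the form most tied to glucose uptake in fat. Akt1 (chromosome 12, 112653821 to 112674884) lay between 58.0 and 75.3 CPM in Axl KO mice, with a median of 71.8, and between 67.8 and 72.8 CPM in WT mice, with a median of 71.6. Akt2 (chromosome 7, 27591552 to 27640826) lay between 379 and 413 CPM in Axl KO mice, with a median of 408, and between 364 and 445 CPM in WT mice, with a median of 405. For both, the groups lay on top of one another. The fitted change in Axl KO mice was -1.46% for Akt1 (95% interval -11.2 to 9.40%) and -0.392% for Akt2 (interval -10.0 to 10.2%), with adjusted p-values of 0.951 and 0.993 in edgeR's quasi-likelihood test. Akt2 lies 1.80 Mb from Axl on the same chromosome. The log2 ratio of Akt1 to Akt2 differed by -0.023 (SE 0.099, two-sided exact permutation p = 0.849).

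**Figure D1:**
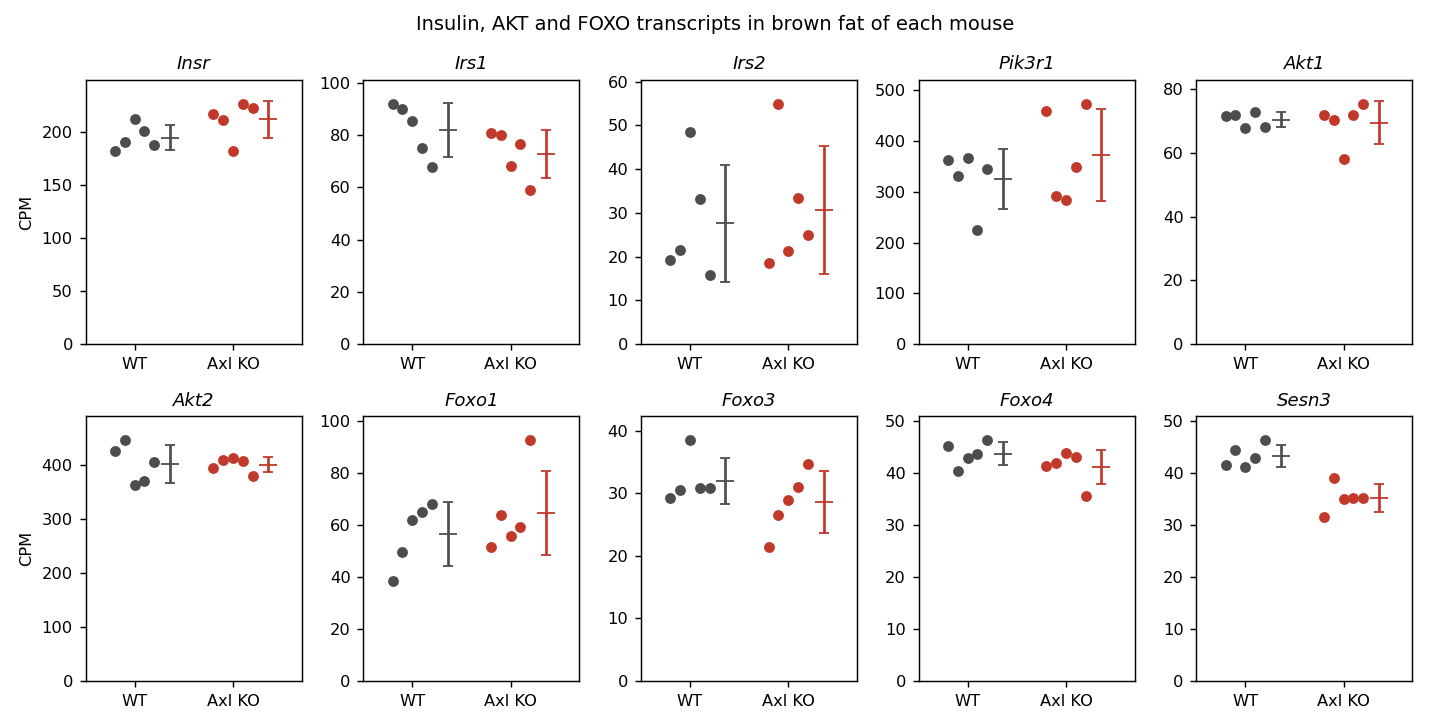
CPM of each of the 10 transcripts (vertical axis from 0) in WT (grey) and Axl KO (red) mice, 1 point per mouse in order of replicate number, with the mean and SD of 5 mice beside them. The genotypes separate for Sesn3, at 31.5 to 39.1 CPM in Axl KO and 41.1 to 46.3 CPM in WT mice, and overlap in the other 9 panels.

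The FOXO genes encode forkhead transcription factors that AKT phosphorylates. Foxo1 (chromosome 3, 52268336 to 52353221), the form the study follows, was read at 51.5, 64.0, 55.9, 59.0 and 92.5 CPM in Axl KO replicates 1 to 5. WT replicates 1 to 5 gave 38.5, 49.7, 62.1, 64.9 and 68.0 CPM. Only replicate 5 of Axl KO exceeded the WT range, while the other 4 Axl KO mice lay within it. The log2 fold change was 0.19 (SE 0.17, interval -0.19 to 0.56; adjusted p = 0.788, edgeR), and it was 0.022 without Axl KO replicate 5 and 0.076 without WT replicate 1. Axl KO replicate 5 had the most muscle marker RNA of the Axl KO group, 3589 CPM. It also had the highest brown adipocyte sum, 20990 CPM, and the lowest fibroblast sum, 549 CPM. In WT mice the lowest Foxo1 value (replicate 1) went with 3490 CPM of muscle markers and the highest (replicate 5) with 871 CPM. What set Axl KO replicate 5 apart was not tested.

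Foxo3 (chromosome 10, 42181841 to 42276755) was read at 21.5, 26.6, 28.9, 31.0 and 34.8 CPM in Axl KO replicates 1 to 5 and at 29.3, 30.6, 38.5, 30.8 and 30.8 CPM in WT replicates 1 to 5. Of the Axl KO mice, 3 lay below the whole WT range and 2 inside it. The fitted log2 difference was -0.17 (SE 0.12, interval -0.42 to 0.085; adjusted p = 0.702, edgeR), and it was -0.084 without Axl KO replicate 1 and -0.092 without WT replicate 3. With the summed muscle markers as a covariate, a fit added after the values were seen, it was -0.022 (unadjusted p = 0.846, edgeR), whereas that of Irs1 went to -0.28 (unadjusted p = 0.0262, adjusted p = 0.737, edgeR) and that of Foxo1 to 0.28 (unadjusted p = 0.162, edgeR). Foxo4 (chromosome X, 101254528 to 101260873) lay between 35.5 and 43.9 CPM in Axl KO and between 40.5 and 46.3 CPM in WT mice, with a log2 fold change of -0.082 (SE 0.068, interval -0.23 to 0.065; adjusted p = 0.752, edgeR) that was -0.038 without Axl KO replicate 5.

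Within a mouse, Foxo1 exceeded Foxo3 by 1.90 to 2.66-fold in counts in Axl KO mice and by 1.31 to 2.21-fold in WT mice. The log2 ratio of Foxo1 to Foxo3 was 0.36 higher in Axl KO mice (SE 0.17), with a two-sided exact permutation p = 0.0714, adjusted 0.179 over the 5 ratios, which did not pass the threshold.

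Sesn3 (chromosome 9, 14275067 to 14333101) encodes Sestrin 3, a stress-inducible inhibitor of mTORC1 whose transcription FOXO proteins raise. Axl KO replicates 1 to 5 held 31.5, 39.1, 34.9, 35.3 and 35.1 CPM. WT replicates 1 to 5 held 41.6, 44.4, 41.1, 42.9 and 46.3 CPM. The highest Axl KO mouse, replicate 2, stayed below the lowest WT mouse, replicate 3, and these values rest on 188 to 415 counts per mouse. The mean was 35.2 ± 2.67 CPM in Axl KO and 43.3 ± 2.12 CPM in WT mice (SD, n = 5 each). The log2 fold change was -0.30 (SE 0.066, interval -0.44 to -0.16), a difference of -18.7% (interval -26.3 to -10.2%). Its unadjusted p in edgeR's quasi-likelihood test was 5.92e-04, rank 11 of the 13733 genes tested, and the adjusted p = 0.577 did not pass the threshold. DESeq2 gave an unadjusted p of 4.45e-04 and an adjusted p = 0.216. With any one mouse left out, the log2 fold change stayed between -0.34 and -0.26. In these fits the adjusted p from edgeR ran from 0.132, without Axl KO replicate 3, to 0.823, without Axl KO replicate 1. Mice of one genotype varied little in this transcript, with a biological coefficient of variation of 7.25% at percentile 7.63 of all genes, the lowest of the 10.

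The muscle marker sums of both genotypes overlap only in part, since 3 Axl KO mice lay below every WT mouse. In order of rising muscle sums, Sesn3 was at 39.1, 31.5, 35.3, 34.9 and 35.1 CPM in the Axl KO mice. In the same order it was at 46.3, 44.4, 42.9, 41.6 and 41.1 CPM in the WT mice. In the fit with the muscle covariate the log2 fold change of Sesn3 was -0.33 (SE 0.081, unadjusted p = 0.00139, adjusted p = 0.737, edgeR). As the sums overlap only in part, muscle content and genotype cannot be fully told apart. The fibroblast markers summed to 824, 763, 918, 559 and 549 CPM in Axl KO replicates 1 to 5. In WT replicates 1 to 5 they summed to 1021, 796, 1043, 766 and 911 CPM. The part of the lower fibroblast markers in the Sesn3 difference was not tested.

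**Figure D2:**
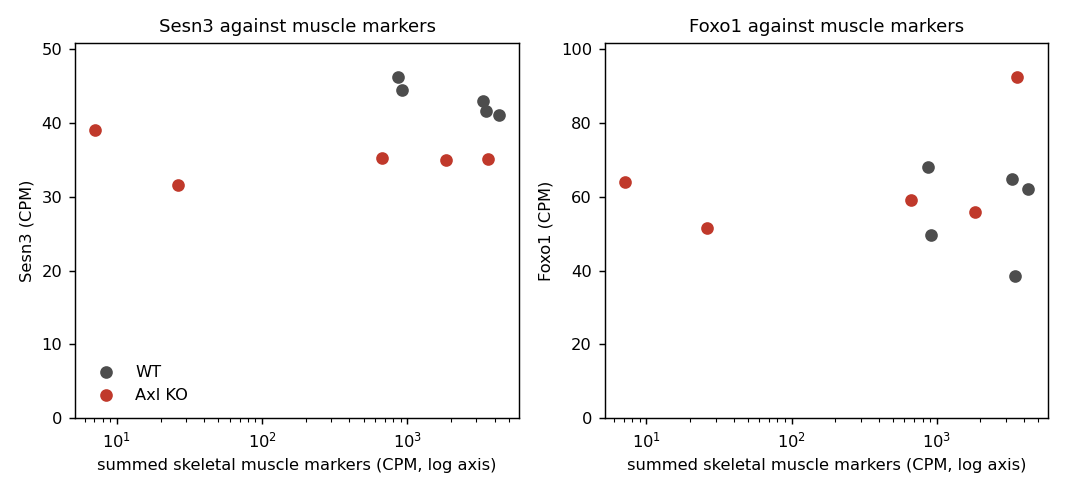
Sesn3 and Foxo1 in CPM (vertical axes from 0) against the summed CPM of 12 skeletal muscle markers (horizontal log axis), 1 point per mouse, WT in grey and Axl KO in red. Sesn3 lies between 31.5 and 39.1 CPM in the Axl KO mice, at muscle sums of 7.09 to 3589 CPM, and between 41.1 and 46.3 CPM in the WT mice, whose sums start at 871 CPM, and the highest Foxo1 value, 92.5 CPM, belongs to the Axl KO mouse at 3589 CPM.

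The 10 estimates stand side by side in the plot of log2 fold changes. Narrow intervals were obtained for Sesn3, Akt2, Foxo4, Akt1 and Insr, whose widths ran from 0.284 to 0.304 on the log2 scale, and the interval of Irs2 was 1.46 wide.

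**Figure D3:**
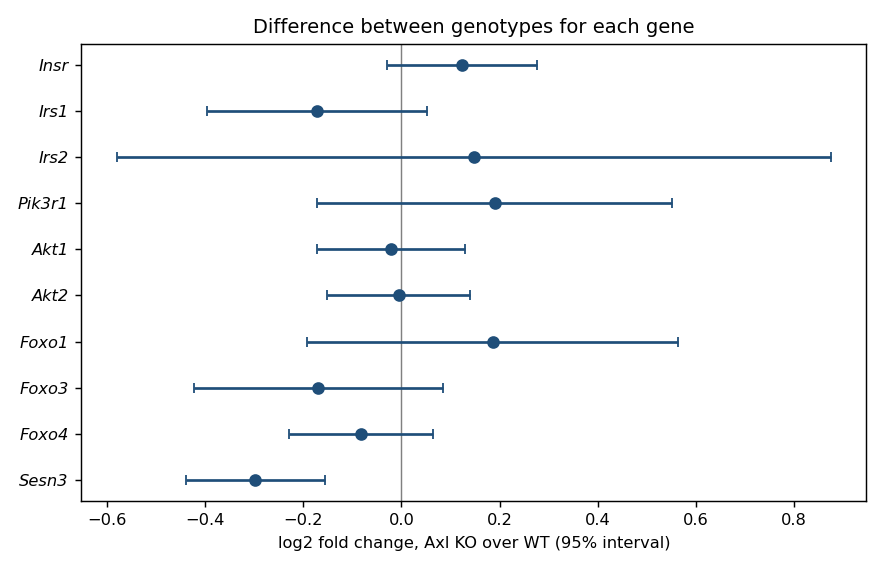
Log2 fold change of Axl KO over WT with its 95% interval from edgeR's fit for each of the 10 transcripts, 5 mice per genotype. The interval of Sesn3 (-0.44 to -0.16) lies below 0, and the other 9 include 0.

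To compare the transcripts with each other, CPM were divided by the length of each gene's annotated exons in kilobases. In WT mice Akt2 stood highest at 56.4 ± 4.96 CPM per kb (SD, n = 5), at percentile 94.8 of all tested genes, followed by Pik3r1 at 32.3 ± 5.81, Akt1 at 17.2 ± 0.570 and Insr at 14.2 ± 0.861 CPM per kb. Foxo4 (12.5 ± 0.645), Irs1 (8.97 ± 1.12), Foxo1 (6.53 ± 1.42), Irs2 (4.37 ± 2.11) and Foxo3 (4.23 ± 0.484) came next, and Sesn3 was lowest at 2.83 ± 0.139 CPM per kb, at percentile 39.5. The order was the same in Axl KO mice. Among neighbours in this order, the WT ranges of Insr and Foxo4, Irs1 and Foxo1, Foxo1 and Irs2, and Irs2 and Foxo3 overlapped, and in Axl KO mice those of Akt1 and Insr overlapped in place of Insr and Foxo4, a pair that also had no overlap in WT mice with RLE size factors. Akt2 exceeded Akt1 per length by 2.89 to 4.09-fold in all 10 mice. Per length, Insr exceeded Igf1r by 9.96 to 18.7-fold, and Foxo4 was above Foxo1 in 4 of the 5 Axl KO mice and in all 5 WT mice (means of 1.67 and 2.01-fold). With the longest transcript as length the last 3 places in WT mice changed to Sesn3 (4.74 CPM per kb), Foxo3 (4.67) and Irs2 (4.37), while the first 7 kept their order.

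**Figure D4:**
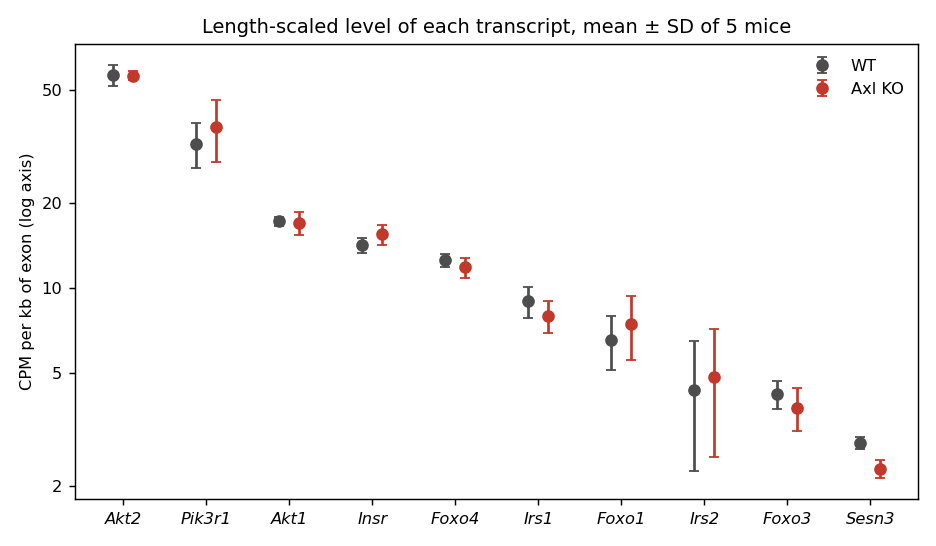
Mean CPM per kb of annotated exon with SD (vertical log axis) for each transcript in 5 WT (grey) and 5 Axl KO (red) mice, ordered by the WT mean. Levels run from 56.4 for Akt2 to 2.83 for Sesn3 in WT mice, and the order is the same in Axl KO mice.

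The further genes of insulin and AKT signaling were described by a list of 52, of which 50 passed the filter. Irs4 (0 counts) and Socs1 (at most 3 counts) did not. At an adjusted p under 0.05 none of the 50 was called by edgeR or DESeq2 (which left 1 without an adjusted p), and at an unadjusted p under 0.05, 1 was higher (2.00%) and 1 lower (2.00%), below the shares over all genes. The higher one was Tbc1d4, which encodes AS160, the AKT substrate that holds back GLUT4 vesicles (log2 fold change 0.25, unadjusted p = 0.0308, edgeR), with 115 to 154 CPM in Axl KO and 105 to 138 CPM in WT mice. The lower one was Gab1, which encodes a docking protein of receptor tyrosine kinases (-0.17, unadjusted p = 0.0375, edgeR), with 25.0 to 30.9 CPM in Axl KO and 29.0 to 33.4 CPM in WT mice. The median over the 50 was -0.0053, and 22 were fitted higher.

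Over the 50, log2 fold changes ran from -0.50 to 0.54. Values were 0.032 for Pdpk1, the kinase that activates AKT, and 0.096 for Mtor. The log2 value was 0.089 for Slc2a4, which encodes the insulin-responsive glucose transporter GLUT4, and -0.0054 for Pde3b, whose product links insulin to the block of lipolysis. Slc2a4 spanned 359 to 566 CPM in Axl KO and 331 to 512 CPM in WT mice, so that a difference of this size is within the spread of either group.

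FOXO regulators and target genes formed a list of 37, with 34 tested, since Igfbp1, G6pc and Foxo6 had at most 0, 1 and 4 counts. Neither edgeR nor DESeq2, which left 2 without an adjusted p, called any at an adjusted p under 0.05. At an unadjusted p under 0.05, 5 were higher (14.7% of the 34, beside 4.47% of all genes) and 2 lower (5.88%, beside 3.84%), 20 of the 34 were fitted higher, and their median lay at 0.026 on the log2 scale. The list was chosen with earlier results of these data known, so these shares describe it and do not test FOXO activity. The brown adipocyte markers, which share Ucp1, Ppargc1a and Adipoq with this list, had a median of 0.095 with 11 of 13 fitted higher, and their part in these counts was not tested.

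The 5 higher genes are described in order of their unadjusted p, apart from Ucp1, and all had an adjusted p = 0.577 in edgeR. Bnip3, which encodes a mitophagy receptor, had a log2 fold change of 0.30 (unadjusted p = 0.00972, edgeR), with 236 to 363 CPM in Axl KO and 234 to 278 CPM in WT mice. Map1lc3b, the gene of the autophagosome protein LC3B, was at 0.16 (unadjusted p = 0.0158, edgeR), with 150 to 180 CPM against 143 to 152 CPM. Atg14, which encodes a subunit of the autophagy-specific class III PI3K complex, was at 0.27 (unadjusted p = 0.0232, edgeR). It held 14.9 to 17.0 CPM in Axl KO and 11.4 to 16.5 CPM in WT mice. Gabarapl1, an LC3 relative, was at 0.18 (unadjusted p = 0.0319, edgeR), with 141 to 194 CPM against 143 to 156 CPM. In each of the 4 the groups overlapped. The fifth was Ucp1, the uncoupling protein of brown fat, at 0.43 (unadjusted p = 0.0180, edgeR), with 4873 to 7581 CPM in Axl KO and 2977 to 4995 CPM in WT mice. Axl KO replicate 5 held the highest value of the Axl KO mice for all 5 genes. Without that mouse the Axl KO values of Ucp1 ran from 4873 to 5579 CPM. Whether the 5 genes vary independently of each other was not tested.

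The lower genes were Gadd45a, of the DNA damage response, at -0.86 from a level of only 0.748 to 3.14 CPM (unadjusted p = 0.0267, edgeR), and Sesn1, a relative of Sesn3, at -0.18 (unadjusted p = 0.0498, edgeR). Sesn1 held 16.5 to 20.5 CPM in Axl KO and 19.5 to 23.4 CPM in WT mice. The third Sestrin gene, Sesn2, was fitted at -0.14 (unadjusted p = 0.364, edgeR), so that all Sestrin estimates had the same sign and only that of Sesn3 had no overlap between groups. Ppargc1a (0.024) and Pdk4 (0.0059), classical FOXO1 targets of fasting metabolism, overlapped between the groups.

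**Figure D5:**
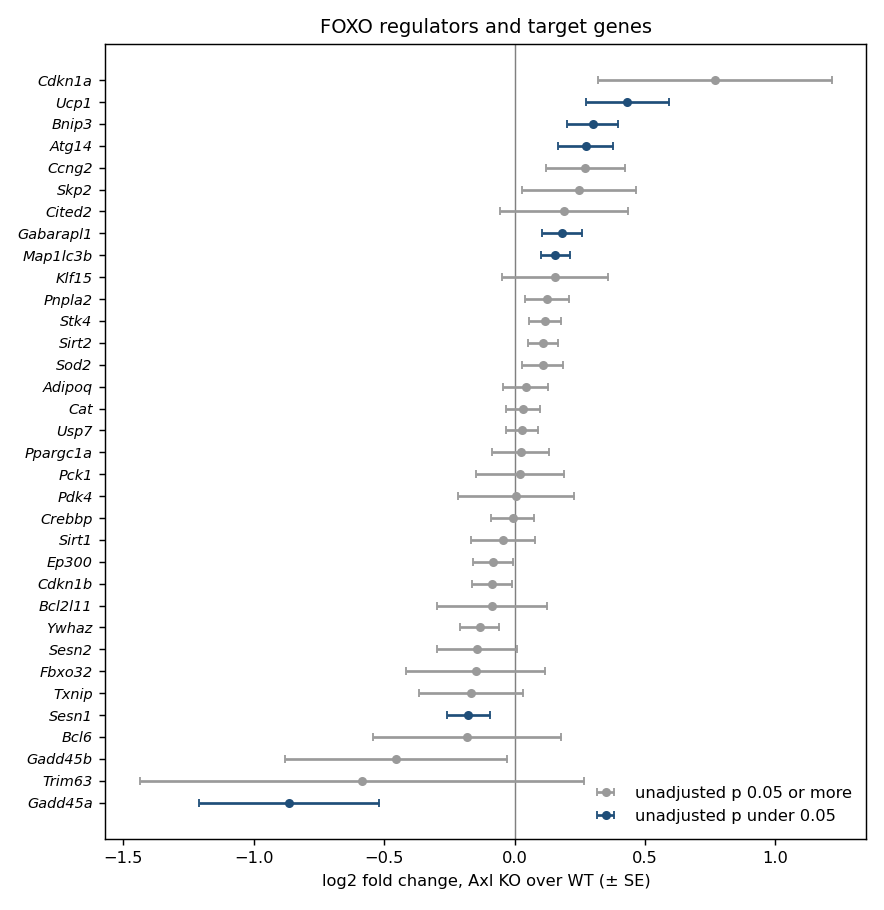
Log2 fold change of Axl KO over WT with its SE for the 34 tested FOXO regulators and target genes, blue where the unadjusted p was under 0.05. The blue genes with positive values are Ucp1, Bnip3, Atg14, Gabarapl1 and Map1lc3b, those with negative values are Gadd45a and Sesn1, and none passed the adjusted threshold.

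To see whether mice with more Foxo1 or Insr also had more of the FOXO targets, log2 CPM were correlated over the 10 mice after the genotype means were removed, with permutation of mice within genotypes (100000 resamples) and adjustment over the 6 pairs of Foxo1, Insr, Irs2 and Sesn3. The highest value was that of Insr and Irs2, with Pearson's r = 0.52 (permutation p = 0.144, adjusted 0.596) and Spearman's rho = 0.61 (p = 0.0838, adjusted 0.503), and r = 0.48 without the 2 mice farthest from the median of Insr. For Foxo1 and Sesn3 r was 0.35 (permutation p = 0.329) and rho 0.38 (p = 0.311), and for Foxo1 and Irs2 0.25 (p = 0.495) and 0.31 (p = 0.416). The pair of Insr and Sesn3 was negative, with r = -0.18 (permutation p = 0.615) and rho = -0.21 (p = 0.574), and r = -0.57 without the 2 mice farthest from the median of Insr. Insr and Foxo1 had r = 0.44 (permutation p = 0.214), and r = 0.11 without the 2 mice farthest from the median of Insr. Irs2 and Sesn3 had r = 0.25 (permutation p = 0.497), and r = 0.10 without the 2 mice farthest from the median of Irs2. None of the 6 pairs passed the adjustment.

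Over all 45 pairs of the 10 transcripts the strongest relation was a negative one, between Irs1 and Foxo1, with r = -0.80 (permutation p = 0.00821, adjusted over 45 pairs 0.369) and rho = -0.84 (p = 0.00612, adjusted 0.275). Without the 2 mice farthest from the median of Irs1, replicates 5 of both genotypes, r was -0.56, so that the relation rested in part on them. It did not pass the adjustment.

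As a description over the 10 mice, with genotype means removed and no test, the genes whose log2 CPM followed Foxo1 most closely among all tested genes were Lrrc8a (r = 0.949), Ski (r = 0.947) and Cdkn1a (r = 0.939). For Irs2 they were Sytl1 (r = 0.971), Eif4a2 (r = 0.949) and Snhg12 (r = 0.932), and for Sesn3 Lyplal1 (r = 0.945), Gm26534 (r = 0.942) and Meaf6 (r = 0.925). All of these genes share the libraries, their depth and their tissue content with the transcript they followed.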

How the data were processed

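Per the labels and the paper's methods, iBAT of each mouse was snap-frozen and its RNA sequenced with 1 library per mouse. The authors deposited 1 table per mouse with raw counts of reads per Ensembl gene, neither normalized nor pooled. The methods name Trim Galore and hisat2 on GRCm38, whereas the submitters' processing notes list Trimmomatic 0.36 and STAR 2.6.1c. Sources also differ on polyadenylated against rRNA-depleted RNA. The counting tool, its strand setting and its treatment of multi-mapped reads are not given in the sources used here, so counts of overlapping genes or near-identical copies are uncertain. Of the 41249 identifiers 41163 matched GENCODE M21, which gave symbols and exon lengths.

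Counts were fitted in R 4.3.3 with edgeR 4.0.16 (TMM, mean above 1 CPM, quasi-likelihood test, no covariate) over all 13733 genes, with Benjamini-Hochberg adjustment over all of them and a threshold of 0.05. The procedure was tested on simulated data. Counts of any pair of mice differed by more than sampling noise (lowest chi-square per gene 5.18), and every mouse was kept as 1 replicate. The 10 genes and all lists were chosen with earlier results of these data known. The named genes are the 10, Axl, the ratio partners, 10 fixed pathway genes (1 of them not reported here), up to 6 genes per list with the lowest unadjusted p under 0.05 and the 3 most alike genes of Foxo1, Irs2 and Sesn3. Ratios within a mouse were compared with exact permutation tests in Python 3.11.15 with scipy 1.17.1, after 0.5 was added to each count. Alternatives were DESeq2 1.42.0, RLE size factors, filterByExpr, no filter, a robust fit, protein-coding genes alone, a replicate block, each mouse left out and, added after the values were seen, a muscle covariate. Markers of macrophages, endothelium, Schwann cells and red cells were read as well, with 0 called at an unadjusted p under 0.05 in each list.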

Additional observations from a re-analysis of the deposited data

Results flagged for a closer look

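Of 30 groups of 5 mice examined for a mouse far from the others (each of the 10 transcripts and 5 ratios in both genotypes), 3 held a mouse whose gap to its nearest neighbour exceeded 0.71 of the whole range, where chance gives about 1.5 such groups. Foxo3 was at 38.5 CPM in WT replicate 3, against 30.8 CPM in the next mouse. Pik3r1 was at 224 CPM in WT replicate 4, against 331 CPM in the next, and the log2 ratio of Pik3r1 to Pik3ca in that mouse was 1.32, against 1.87 in the next. The last result repeats the second, since Pik3ca varied little.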

How the results depend on the processing

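None of the 10 transcripts was called in any of 18 alternative fits, while the number of called genes was 1 in each of them except DESeq2, which called 9. Of 180 alternative values of the 10 log2 fold changes, 172 kept their direction and 8 turned it. Irs2 turned to -0.060 with the muscle covariate and ranged from -0.17 to 0.46 with single mice left out, Akt1 from -0.055 to 0.038 and Akt2 from -0.040 to 0.034. Among the ratios within a mouse, leaving out 1 mouse moved Irs1 to Irs2 between -0.55 (without WT replicate 3) and -0.13 (without Axl KO replicate 2), Pik3r1 to Pik3ca between 0.020 (without WT replicate 4) and 0.25 (without Axl KO replicate 3), Akt1 to Akt2 between -0.0731 and 0.0519, Foxo1 to Foxo3 between 0.26 and 0.45 (unadjusted exact permutation p = 0.0476 without WT replicate 4 or 5) and Insr to Igf1r between 0.26 and 0.40, the last with an exact permutation p of 0.0635 without any one of 6 of the mice. The correlation of Foxo1 and Sesn3 was -0.10 with the genotype means kept.

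Same-numbered mice did not deviate together (correlations of -0.36 to 0.37, with 1 of 5 Axl KO mice closest to its own number), so the numbers were not taken as pairs. With the replicate block, Sesn3 was at -0.30 (unadjusted p = 0.00130, adjusted p = 0.637, edgeR), Irs1 at -0.17 (unadjusted p = 0.0283, adjusted p = 0.637, edgeR), and the ratio of Insr to Igf1r at 0.33 (exact permutation p = 0.0625, the smallest p that 5 pairs allow). With 5 mice per genotype and these depths, differences of the size seen for Foxo1, Pik3r1 and Irs2 could not be told from the spread between mice.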
